A study of Mus musculus with 6 samples.

Results

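The 40 genes described here encode the proteins by which epithelial cells hold together and keep their polarity, with the factors that control them. They were chosen by name from what the genes are known to do, with earlier results of these data already seen. They make up 40 of the 24062 genes counted in each library. They fell into 8 classes: Cdh1 and Epcam, 9 claudins, 7 other tight junction genes, 5 keratins, 6 desmosome genes, 6 splicing and transcription factors, 2 genes of polarity and vesicle traffic, and matriptase with its 2 inhibitors.

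RNA sequencing was done on cells that flow cytometry had separated from dorsal pancreatic buds of embryonic mice, with 1 library for each of 6 groups. The groups were epithelium at E12.5, mesenchyme at E12.5 and epithelium at E14.5, each from controls labelled mTmG and from Pbx mutants. The mTmG allele is a reporter that makes cells red (Tomato) until Cre recombinase turns them green (GFP), and it was carried in all 6 groups. The mutant genotype label reads mTmG+/-, Nkx2.5-Cre+/- and Pbx2+/-, beside a further allele that is not reported here, so Pbx2+/- is not the only difference from the controls. Nkx2.5-Cre is known to act in the mesenchyme of the bud rather than in its epithelium. Each library was made from pooled frozen sorted fractions, and the labels do not say how many embryos entered a pool nor how GFP cells came from embryos labelled mTmG alone. Counts on genes ranged from 14032569 to 20276045 per library. Pbx2, the gene with 1 mutant copy in the label, was at 54.5 and 49.7 CPM in the control and mutant E12.5 epithelium, at 89.9 and 56.0 CPM in the mesenchyme and at 34.0 and 47.3 CPM in the E14.5 epithelium. It was lower in the mutant mesenchyme (1.60-fold, interval 1.47 to 1.75) and in the E12.5 epithelium labelled mutant (1.10-fold, 1.001 to 1.21). It was higher in the E14.5 epithelium labelled mutant (1.39-fold, 1.24 to 1.56). Control mesenchyme held 1.65-fold more of it than control epithelium at E12.5 (1.52 to 1.78). The part of mesenchymal cells in its epithelial level was not tested. Because Pbx2 was not lower at both stages, the epithelial libraries are called libraries labelled mutant.

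In an epithelium, neighbouring cells are joined near their apical side by tight junctions, below them by adherens junctions, and along their flanks by desmosomes. Claudins and occludin form the sealing strands of the tight junction, E-cadherin forms the adherens junction, and desmosomal cadherins link through plakophilins, plakoglobin and desmoplakin to keratin filaments. In the embryonic pancreas the epithelium branches, opens a network of lumens and gives rise to acinar, ductal and endocrine cells, while the surrounding mesenchyme supplies growth signals and lacks such a continuous layer of junctions.

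Levels are given in CPM, counts relative to library size after scaling by the TMM method. A ratio of 2 libraries is given on the log2 scale or as a fold, with an exact 95% interval that covers counting error only. A gene counted as measured where either library of a comparison held 5 CPM or more of it, and as called where the libraries differed by 2-fold or more with an interval that did not include 1. With 1 library in each group there was no replicate check and no test across samples. Libraries differed by more than counting error: log2 ratios of all genes in the E12.5 epithelial genotype pair had an SD of 0.78 at 5 to 20 CPM, 0.42 at 20 to 100 CPM and 0.28 at 100 CPM or more.

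The genes were far more abundant in the epithelial than in the mesenchymal libraries. Their summed level was 5481 CPM in the E12.5 control epithelium, 4613 CPM in the E12.5 epithelium labelled mutant, 9492 CPM in the E14.5 control epithelium and 5220 CPM in the E14.5 epithelium labelled mutant. The 2 mesenchymal libraries held 429.5 CPM (control) and 374.7 CPM (mutant) of them. All 40 genes had reads in each epithelial library, and 39, 38, 39 and 39 of them reached 5 CPM, in the order just given. The control mesenchyme held 10 genes at 5 CPM or more and 6 with no read, and the mutant mesenchyme 9 and 9. Krt20, a keratin of differentiated gut epithelium, was under 5 CPM in all 6 libraries, with 3.08 CPM at most. The sum in the E14.5 control epithelium stands apart as the highest of the 6, and those of the other 3 epithelial libraries lie within a narrower range.

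**Figure D1:**
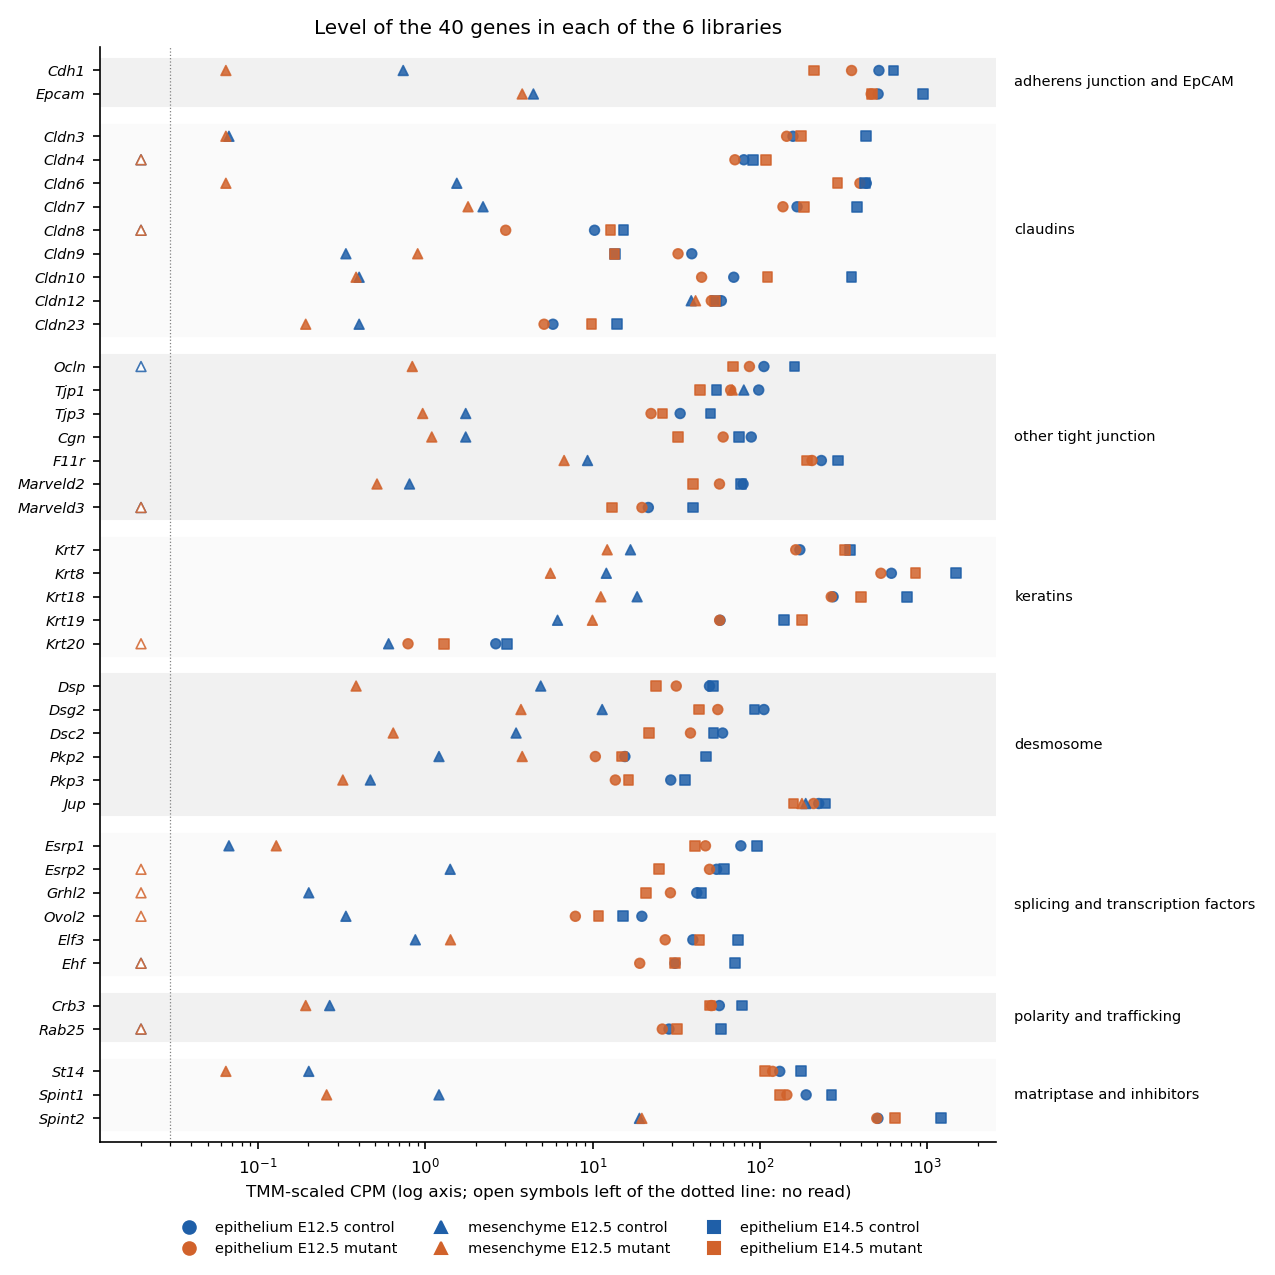
Each row is 1 gene and each symbol 1 library, on a log axis of TMM-scaled CPM; circles are E12.5 epithelium, squares E14.5 epithelium and triangles E12.5 mesenchyme, in blue for control and orange for mutant, with open symbols where there was no read. The mesenchymal symbols lie to the left of the epithelial ones for nearly all genes, close to them for Cldn12, and in the same range for Tjp1 and Jup.

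Per kilobase of exon the most abundant of the genes in the E12.5 control epithelium was Krt8 with 312 CPM per kb, followed by Cldn6 (251), Epcam (232), Krt18 (190.4), Cldn3 (125) and Cdh1 (112). The least abundant was Krt20 with 1.37 CPM per kb, after Pkp2 (2.91), Cldn23 (3.13) and Cldn8 (4.36). Neighbours in this order often lay close together, such as Cdh1 (112) and Spint2 (111), or F11r (87.4) and Cldn7 (85.5), and their order had no replicate check. In the E14.5 control epithelium Krt8 (755 CPM per kb), Krt18 (525) and Epcam (427) led, and Cldn6, at 248 CPM per kb, came after Cldn3 (342) and Spint2 (264).

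The first comparison asked how the epithelial and mesenchymal pools labelled E12.5 control differed. The labels do not say whether both pools came from the same buds. Of 39 measured genes 36 were called lower in the mesenchyme and 0 higher, where 13.6% of all 12066 measured genes were called lower and 7% higher. The median log2 ratio was -5.88, or 58.7-fold, with quartiles of -7.36 and -4.0, against a median of 0.03 over all genes. The 3 exceptions were Cldn12 (58.8 CPM in epithelium and 38.8 CPM in mesenchyme, 1.51-fold lower), Tjp1 (98.3 and 80.1 CPM, 1.23-fold lower) and Jup (225 and 188 CPM, 1.20-fold lower). Tjp1 encodes the scaffold ZO-1 and Jup encodes plakoglobin, which also occur at the cadherin junctions of cells outside epithelia. Between the mutant pools 35 of 38 measured genes were lower in mesenchyme than in epithelium and 0 higher (background 12.9% and 5.42%), with a median of -6.30, and the same 3 genes were the ones not called.

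The classes kept different amounts of signal in the mesenchyme. The control mesenchyme held 5.16 CPM of Cdh1 and Epcam together, against 1022 CPM in the epithelium, and 2.88 CPM of the 6 splicing and transcription factors against 264 CPM. Keratins summed to 54.1 against 1117 CPM, with Krt18 at 18.4, Krt7 at 16.8, Krt8 at 12.1 and Krt19 at 6.17 CPM in the mesenchyme. Desmosome genes summed to 209 against 485 CPM, and 188 CPM of the mesenchymal sum came from Jup. Class medians ran from -8.14 for Cdh1 and Epcam to -3.63 for the keratins and -3.52 for the desmosome genes. Cdh1, which encodes E-cadherin (chr8:106603351-106670246, mm10), had 11 reads in the control mesenchyme (0.738 CPM) and 10914 in the epithelium (514 CPM), a 697-fold difference (389 to 1396). Cldn4, Cldn8, Marveld3, Ehf and Rab25 had no read in either mesenchymal library. Against a floor of 3 counts in the control mesenchyme, Cldn4 was at least 398-fold lower there, Ehf at least 154-fold, Rab25 at least 142-fold, Marveld3 at least 107-fold and Cldn8 at least 51-fold, while Ocln, with no read in control mesenchyme and 0.836 CPM in mutant mesenchyme, was at least 525-fold lower in the control mesenchyme.

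Markers of other cells differed between the fractions too. Of 26 measured mesenchymal markers 17 were higher in the control mesenchyme and 0 lower, and their sum was 12413 CPM there and 5872 CPM in the control epithelium, where Col1a1 stood at 1142 CPM. In the control mesenchyme Col1a1 stood at 2930 CPM. The sorted epithelium thus held many reads of mesenchymal genes, and their part in the ratios above was not tested. Of 9 measured mesothelial markers, genes of the keratin-containing layer that covers the bud, 3 were lower in mesenchyme than in epithelium and 0 higher. The 3 were Cdh3 (159 CPM in control epithelium and 54.0 CPM in control mesenchyme), Podxl (152 and 66.0 CPM) and Gpm6a (11.7 and 1.81 CPM). Wt1 went the other way (34.1 and 66.1 CPM) and was not called. The mesothelial sum was 510 CPM in control epithelium, 308 CPM in control mesenchyme and 202 CPM in mutant mesenchyme. Acinar, endothelial and glial markers summed to 17.2, 71.7 and 10.3 CPM in the control mesenchyme.

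Within the mesenchyme the 2 genotypes were compared for the 10 genes that reached 5 CPM. Dsg2, the desmosomal cadherin desmoglein 2, had 11.4 CPM in the control mesenchyme against 3.73 CPM in the mutant one, 3.06-fold lower (2.26 to 4.19). Krt8 was at 12.1 and 5.59 CPM, 2.16-fold lower (1.66 to 2.82). These were the 2 genes called lower and 0 were called higher (background 3.5% and 1.96%), with a median of -0.35. The other keratins lay on both sides: Krt18 was 1.65-fold lower (1.36 to 2.0), Krt7 1.38-fold lower (1.14 to 1.67) and Krt19 1.62-fold higher (1.24 to 2.11). Jup, Cldn12 and Spint2, the last a membrane-bound protease inhibitor, had ratios of -0.08, 0.09 and 0.05 on the log2 scale, with intervals that hold 0. Among genes under 5 CPM, Dsp was at 4.90 and 0.386 CPM, Dsc2 at 3.49 and 0.643 CPM, Cldn6 at 1.54 and 0.0643 CPM and Pkp2 at 1.21 and 3.79 CPM. Mesothelial markers were lower in the same comparison (3 of 8, 0 higher, median -0.66), with Upk3b at 31.9 and 20.6 CPM and Lrrn4 at 22.6 and 6.82 CPM, while those of several other cell types differed too. Erythroid markers summed to 65.7 CPM in control and 2.12 CPM in mutant mesenchyme (3 of 3 lower, median -5.62), leukocyte markers to 89.7 and 44.8 CPM (5 of 6 lower, 0 higher, median -1.80) and endothelial markers to 71.7 and 94.1 CPM (2 of 4 higher, 0 lower). The part of these cells in the desmosome and keratin ratios was not tested.

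The next question was how these genes differed in the epithelium between control and mutant buds, and whether they did so together or by class. At E12.5, 3 of 39 measured genes were called lower in the library labelled mutant and 0 higher, where 3.21% of all 11991 measured genes were called lower and 1.79% higher. Although few passed the threshold, all 39 ratios were below 0, against 49.9% of all measured genes, and 33 of the 39 intervals lay below 0. The median log2 ratio was -0.28 with quartiles of -0.58 and -0.14, and the median of all genes was 0.00. Of the 39, 1 was at least 3-fold lower, 2 were 2-fold to 3-fold lower, 7 were 1.5-fold to 2-fold lower and 29 were less than 1.5-fold lower. Krt19, with the ratio nearest 0 (-0.01), turned to 0.08 when the libraries were thinned to the smallest total.

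At E14.5, 18 of 39 measured genes were called lower and 0 higher, where 6.4% of all 12145 measured genes were called lower and 9.64% higher. Ratios were below 0 for 37 genes, against 52.3% of all measured genes, and 34 intervals lay below 0. The median was -0.94, or 1.92-fold lower, with quartiles of -1.20 and -0.58, against a median of -0.03 over all genes. Of the 39, 3 were at least 3-fold lower, 15 were 2-fold to 3-fold lower, 11 were 1.5-fold to 2-fold lower, 8 were less than 1.5-fold lower, and Cldn4 and Krt19 were higher (0.25 and 0.36 on the log2 scale, neither called). Just inside the threshold were Epcam (2.01-fold) and Spint1 (2.03-fold), and just outside it Tjp3 (1.94-fold) and Marveld2 (1.92-fold). The E12.5 and E14.5 pairs share no library. Between them, 37 genes had ratios below 0 in both, 32 had the lower ratio at E14.5, and 1, Pkp3, was called lower in both. Shares over all genes were not computed for these counts across both pairs, nor for intervals below 0.

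**Figure D2:**
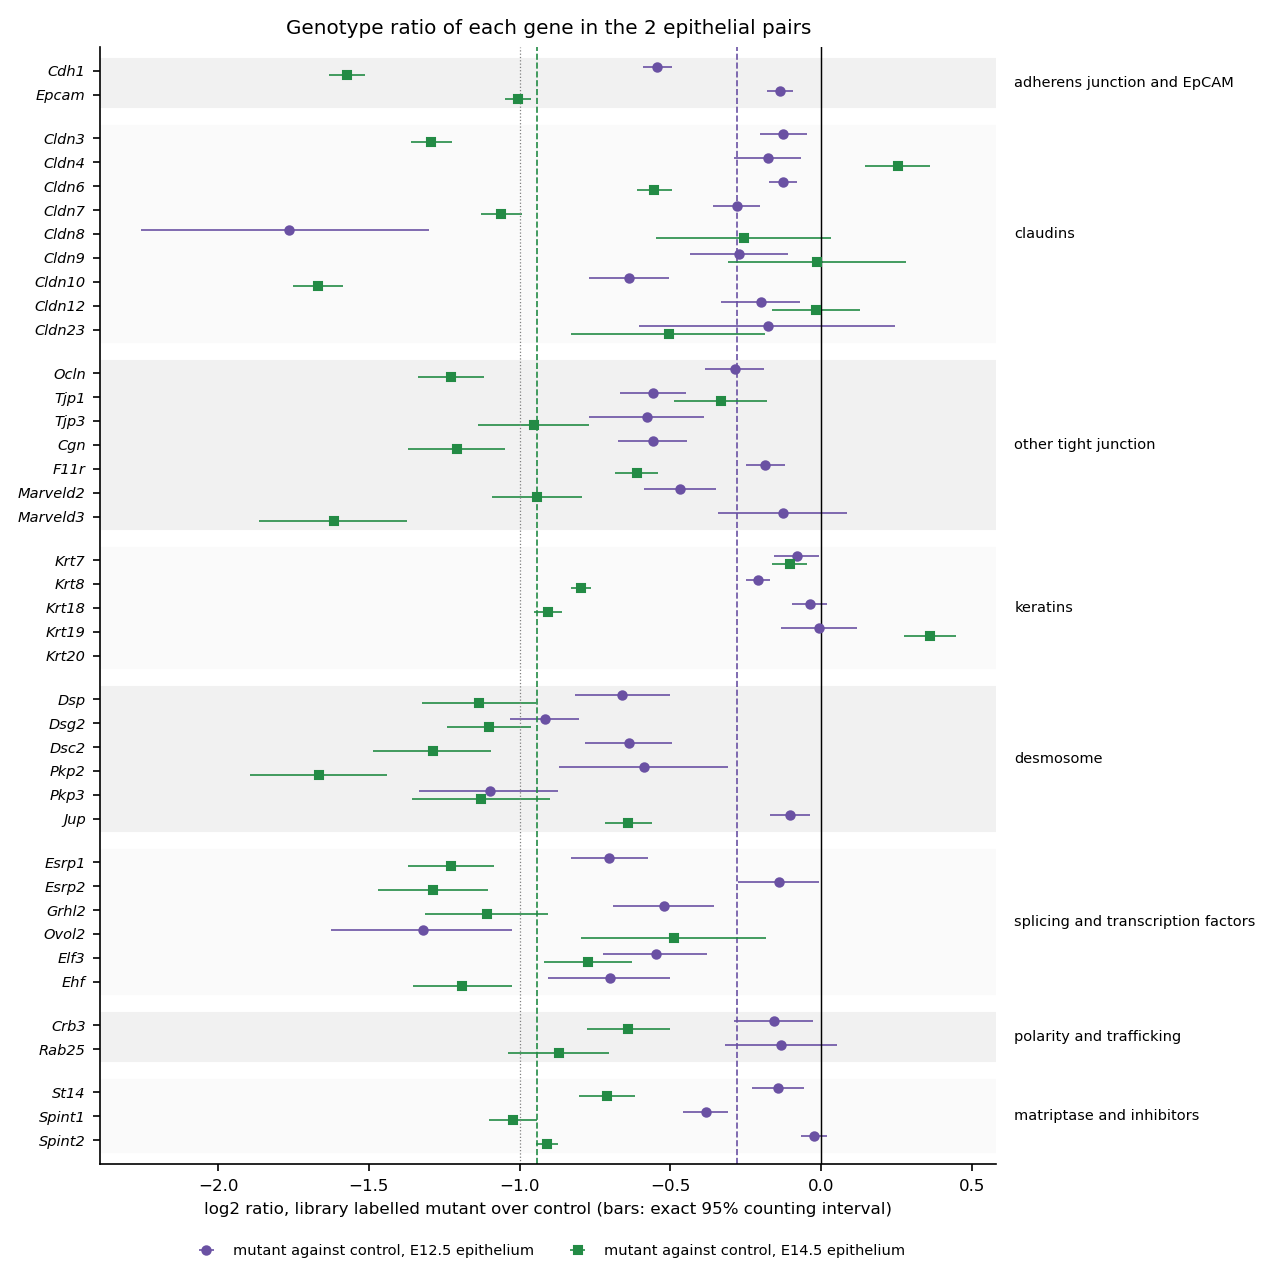
Each row is 1 gene, with its log2 ratio of the library labelled mutant over control at E12.5 (purple circles) and E14.5 (green squares); bars are exact 95% counting intervals, dashed lines the medians of the 39 measured genes (-0.28 and -0.94), and the dotted line marks 2-fold lower. Desmosome genes other than Jup lie left of the medians, the keratins lie to the right at E12.5, and Cldn4 and Krt19 lie to the right of 0 at E14.5.

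The ratios varied among the genes, with an SD no larger than that of all genes at the same level. All genes include markers of other cell types that differed between the libraries, so this does not show whether the genes moved together. At E14.5 the SD of the log2 ratio was 0.51 over the 39 genes. Split by the higher of the 2 levels, it was 0.23 over the 4 genes at 5 to 20 CPM, 0.40 over 18 genes at 20 to 100 CPM and 0.56 over 17 genes at 100 CPM or more, against 1.21, 0.72 and 0.58 over all genes. At E12.5 the SD was 0.38 over the 39 genes, and 0.71, 0.28 and 0.23 in the same ranges, against 0.78, 0.42 and 0.28 over all genes. At 20 to 100 CPM the genes thus spread less than other genes did, and at 100 CPM or more at E14.5 about as much. Of the 39 counting intervals at E14.5, 16 lay above the median of these genes, 15 below it and 8 held it (12, 18 and 9 at E12.5). By class at E14.5, 6 of 9 claudins lay above and 3 below, and 3 of 4 keratins above and 0 below. Of 6 desmosome genes 1 lay above and 4 below. Shares over all genes were not computed for these counts. The counting SD of the median gene was 0.07 at E14.5 and 0.06 at E12.5, and it leaves out the variation between separate libraries, so that differences between single genes of the group, given below with counting intervals, have no replicate check. A lower share of epithelial cells and less RNA of these genes per epithelial cell cannot be told apart in bulk libraries.

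Markers of other cells moved with the E14.5 comparison. The mesenchymal markers summed to 6554 and 13248 CPM in control and labelled mutant (20 of 26 measured higher, 0 lower, median 1.30), and 3 of the 28 had no read in the control. Acinar markers summed to 22234 and 5247 CPM (12 of 12 lower, median -2.19), ductal and trunk markers to 3657 and 1908 CPM (5 of 11 lower, 0 higher, median -0.92) and endocrine markers to 2771 and 2313 CPM (2 of 15 lower, 0 higher, median -0.13). At E12.5 the mesenchymal sums were 5872 and 6906 CPM (4 of 24 higher, 0 lower, median 0.29) and the acinar sums 1924 and 1697 CPM (0 of 10 called, median -0.32). Ductal and trunk markers summed to 2757 and 2078 CPM at E12.5 (11 of 11 ratios below 0, 1 called lower, median -0.41) and endocrine markers to 1289 and 1124 CPM (10 of 11 below 0, 2 called lower, median -0.41). Leukocyte markers summed to 487 and 580 CPM at E14.5 (1 of 10 higher, 0 lower, median 0.50). Endothelial markers summed to 356 and 353 CPM (5 of 13 higher, 1 lower, median 0.13). Glial and neural crest markers summed to 156 and 205 CPM (4 of 8 higher, 0 lower, median 1.07). Mesothelial markers summed to 409 and 618 CPM (2 of 9 higher, 0 lower, median 0.75), and erythroid markers to 6.10 and 28.6 CPM (2 of 2 higher). At E12.5 leukocyte markers summed to 498 and 337 CPM (11 of 11 ratios below 0, 0 called, median -0.54). Endothelial markers summed to 364 and 479 CPM there (1 of 14 higher, 0 lower, median 0.29). The part of these cells in the ratios of the junction genes was not tested.

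**Figure D3:**
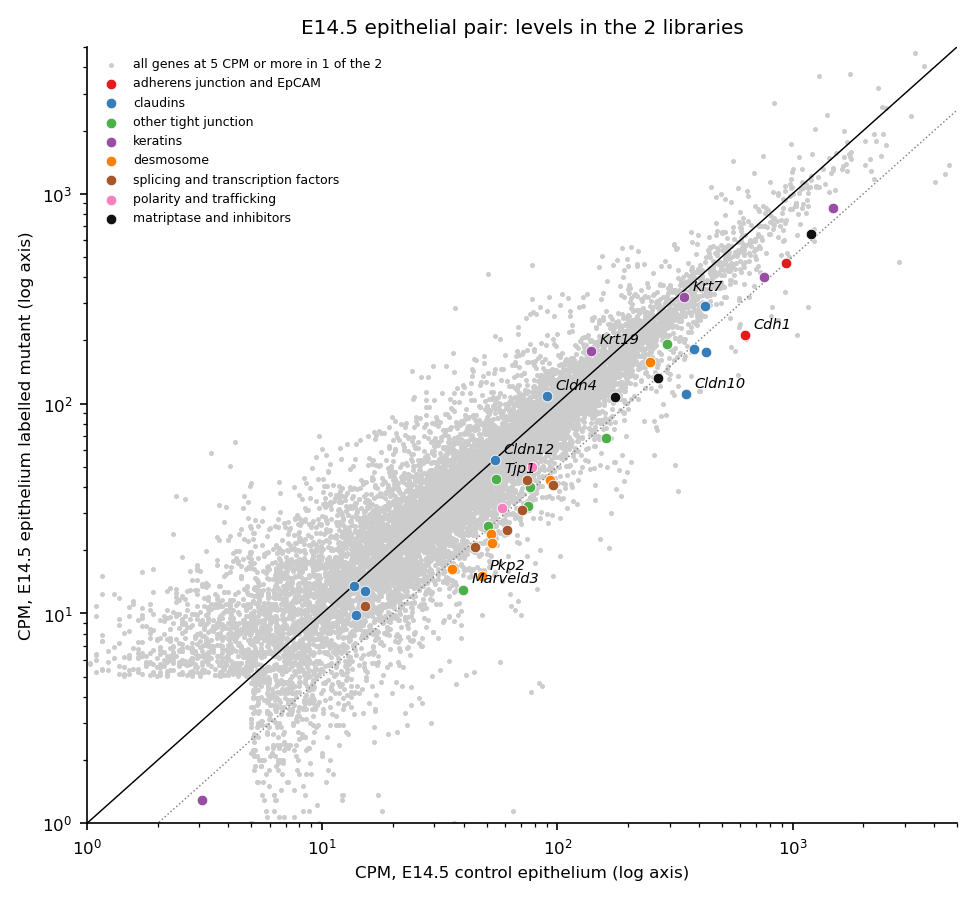
Each point is 1 gene, placed by its CPM in the E14.5 control epithelium and in the E14.5 epithelium labelled mutant, both on log axes from 1 to 5000 CPM; grey points are all measured genes that fall in this range, coloured points the junction, keratin and polarity genes by class, the solid line equal levels and the dotted line 2-fold lower. By the higher of the 2 levels, the coloured points have a median log2 ratio of -1.12 at 20 to 100 CPM and -0.91 at 100 CPM or more, near the dotted line, and of -0.37 for the 4 genes at 5 to 20 CPM; Cldn4, Krt19, Krt7, Cldn12 and Cldn9 lie near or above the solid line and Cdh1, Cldn10, Marveld3 and Pkp2 below the dotted one.

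Levels of the single genes are given below for the 4 epithelial libraries in the order E12.5 control, E12.5 labelled mutant, E14.5 control and E14.5 labelled mutant. Cdh1 was at 514, 353, 628 and 211 CPM. The E14.5 library labelled mutant was the lowest of the 4 for this gene, and the E14.5 ratio was 2.98-fold lower (2.85 to 3.10) after 1.46-fold lower (1.41 to 1.51) at E12.5. Epcam, a surface protein of most simple epithelia that mediates weak cell adhesion, was at 508, 462, 938 and 467 CPM. Here the E14.5 control was the library that stood apart, and the other 3 lay within a narrow range. Its E14.5 ratio was 2.01-fold lower (1.95 to 2.07), and on plain CPM it was -0.93 on the log2 scale, short of the threshold.

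The claudins were the class with the widest range of E14.5 ratios, from -1.67 to 0.25, with 3 of 9 called lower and a median of -0.51. Cldn10, which forms ion-selective paracellular channels (chr14:118787908-118875489), was at 69.7, 44.8, 353 and 111 CPM, and was 3.18-fold lower (3.0 to 3.37) at E14.5. Cldn3, a sealing claudin, was at 157, 144, 430.4 and 176 CPM (2.45-fold lower, 2.34 to 2.57). Cldn7 was at 167, 137, 381 and 183 CPM (2.09-fold lower, 1.99 to 2.19, and -0.99 on plain CPM). In these 3 genes the E14.5 control was the highest library. Cldn6, the claudin typical of embryonic epithelia, was at 432, 396, 426 and 290.3 CPM, and its E14.5 ratio of 1.47-fold lower (1.41 to 1.53) lay above the median of the 39 genes.

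Cldn4, a claudin of tight epithelia (chr5:134945119-134946934), was at 80.1, 70.8, 90.7 and 108 CPM. It was the claudin with the highest level in the E14.5 library labelled mutant relative to control, 1.19-fold higher (1.11 to 1.28) and short of the threshold. Its sister gene Cldn3 lies on the same chromosome (chr5:134986214-134987472) and was 2.45-fold lower. The count ratio of Cldn4 to Cldn3 within a library, which no scaling changes, was 0.509 (0.480 to 0.540) in the E12.5 control, 0.491 (0.456 to 0.528) in the E12.5 library labelled mutant, 0.211 (0.198 to 0.224) in the E14.5 control and 0.616 (0.577 to 0.657) in the E14.5 library labelled mutant. The first 2 intervals overlap and those of the E14.5 pair do not, but they cover counting error only. This pair of genes and those given below were picked after their ratios had been seen. The within-library ratios thus restate those differences and add no separate evidence.

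Among the low claudins, Cldn8, a claudin of distal tubules and ducts, was at 10.3, 3.02, 15.3 and 12.8 CPM. The E12.5 library labelled mutant was the low one, 3.40-fold lower than its control (2.46 to 4.78) and the largest E12.5 fold of the 39 genes. Cldn9, at 39.1, 32.4, 13.6 and 13.5 CPM, and Cldn12, at 58.8, 51.2, 54.6 and 53.9 CPM, had E14.5 ratios of -0.01 and -0.02 with intervals that hold 0, and on plain CPM both ratios turned to 0.06. Cldn23 was at 5.79, 5.12, 14 and 9.84 CPM, and was not called in either pair. Cldn6 (chr17:23679249-23682446) and Cldn9 (chr17:23682584-23684026) are neighbours on opposite strands.

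Of the 7 other tight junction genes 3 were called lower at E14.5 and 0 at E12.5. Marveld3, a membrane protein of the occludin family (chr8:109947914-109962203), was at 21.5, 19.7, 39.9 and 13.0 CPM and was 3.07-fold lower (2.59 to 3.64) at E14.5. Ocln, encoding occludin, was at 106, 86.5, 161 and 68.7 CPM (2.34-fold lower, 2.17 to 2.53), and Cgn, encoding the cytoplasmic linker cingulin, at 88.7, 60.2, 75.2 and 32.5 CPM (2.31-fold lower, 2.07 to 2.59). In all 3 the E14.5 library labelled mutant was the lowest of the 4. Marveld2, the tricellular junction protein tricellulin, was at 79.3, 57.3, 76.9 and 40 CPM, and the scaffold Tjp3 at 33.3, 22.3, 50.6 and 26.1 CPM. F11r, the junctional adhesion molecule A, was at 233, 205, 293 and 192 CPM (1.53-fold lower at E14.5). Tjp1, which the mesenchyme also held at 80.1 CPM in the control, was at 98.3, 66.8, 55.0 and 43.7 CPM, and its E14.5 ratio of 1.26-fold lower (1.13 to 1.40) was the smallest of the class. The count ratio of Cldn4 to Marveld3, both without reads in mesenchyme, was 3.72 (3.35 to 4.14) in the E12.5 control, 3.59 (3.16 to 4.10) in the E12.5 library labelled mutant, 2.27 (2.06 to 2.51) in the E14.5 control and 8.32 (7.13 to 9.76) in the E14.5 library labelled mutant.

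The keratins of simple epithelia, which assemble as pairs of a type I and a type II chain, were not called in either pair. Krt8, the type II chain (chr15:101996698-102004482), was at 610.2, 528, 1479 and 851 CPM, and its usual partner Krt18 at 274, 267, 755 and 403 CPM. Their E14.5 ratios were close, 1.74-fold (1.70 to 1.78) and 1.87-fold lower (1.81 to 1.94), and the count ratio of Krt8 to Krt18 stayed between 1.96 and 2.23 in the 4 libraries. Krt7 and Krt19, keratins of ducts, behaved otherwise. Krt7 was at 173, 164, 346 and 322 CPM, with an E14.5 ratio of 1.07-fold lower (1.03 to 1.12). Krt19 (chr11:100140810-100148665) was at 57.7, 57.4, 139 and 179 CPM, 1.28-fold higher (1.21 to 1.36) in the E14.5 library labelled mutant. The count ratio of Krt19 to Krt18 was 0.211 and 0.215 at E12.5, 0.185 (0.176 to 0.194) in the E14.5 control and 0.444 (0.424 to 0.466) in the E14.5 library labelled mutant, and that of Krt7 to Krt8 was 0.284, 0.310, 0.234 and 0.379. Krt7 and Krt19 had reads in the mesenchyme (16.8 and 12.2 CPM, and 6.17 and 9.97 CPM, in control and mutant), and mesothelial markers summed to 409 and 618 CPM in the E14.5 pair. The part of mesothelial cells in these 2 keratins was not tested.

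Of the 6 desmosome genes 5 were called lower at E14.5 (median -1.13), and the class had the lowest median of the 8 at E12.5 (-0.65, 1 of 6 called). Pkp2, encoding plakophilin 2 (chr16:16213318-16272712), was at 15.6, 10.4, 47.6 and 15.0 CPM and was 3.17-fold lower (2.71 to 3.72) at E14.5. Pkp3 was at 29.3, 13.7, 35.8 and 16.4 CPM, 2.14-fold lower (1.83 to 2.52) at E12.5 and 2.18-fold lower (1.87 to 2.56) at E14.5. Both libraries labelled mutant lay below both controls for Pkp3. The desmosomal cadherins followed the same order, with Dsg2 at 106, 56.0, 92.7 and 43.2 CPM (1.89-fold and 2.15-fold lower) and Dsc2, encoding desmocollin 2, at 59.8, 38.4, 52.8 and 21.6 CPM (1.56-fold and 2.44-fold lower). Dsp, encoding desmoplakin, the link to keratin filaments, was at 49.9, 31.6, 52.3 and 23.8 CPM (1.58-fold and 2.19-fold lower). Jup, which adherens junctions also use, was at 225, 209, 247 and 158 CPM (1.07-fold and 1.56-fold lower). The count ratio of Dsp to Jup was 0.222 (0.208 to 0.238) and 0.212 (0.196 to 0.229) in the controls, and 0.151 (0.137 to 0.166) and 0.150 (0.134 to 0.169) in the libraries labelled mutant. The intervals of the 2 genotype labels did not overlap at either stage, but they cover counting error only. The control mesenchyme held 188 CPM of Jup and 4.90 CPM of Dsp, and the part of mesenchymal cells in this ratio was not tested.

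Splicing and transcription factors had medians of -0.63 at E12.5 (1 of 6 called) and -1.15 at E14.5 (4 of 6 called). Esrp1 and Esrp2, which direct the splicing of epithelial isoforms, were at 76.9, 47.2, 95.8 and 40.9 CPM and at 55.1, 49.9, 61.0 and 25 CPM. At E14.5 they were lower by similar folds, 2.34-fold (2.12 to 2.59) and 2.44-fold (2.15 to 2.77), whereas at E12.5 Esrp1 was 1.63-fold lower (1.49 to 1.78) and Esrp2 1.10-fold (1.01 to 1.21). Grhl2, a Grainyhead factor that activates Cdh1 and claudin genes, was at 41.9, 29.2, 44.7 and 20.8 CPM (1.44-fold lower at E12.5 and 2.16-fold, 1.87 to 2.48, at E14.5). Ovol2, a zinc finger factor that represses mesenchymal genes, was at 19.7, 7.88, 15.2 and 10.8 CPM. It was 2.5-fold lower (2.03 to 3.09) at E12.5 and 1.40-fold lower (1.14 to 1.74) at E14.5. The epithelial Ets factors Elf3 and Ehf were at 39.7, 27.1, 74.3 and 43.4 CPM and at 31.1, 19.1, 71.0 and 31.1 CPM, and at E14.5 Ehf was 2.28-fold lower (2.04 to 2.56) and Elf3 1.71-fold lower (1.55 to 1.89).

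Crb3, a small apical polarity protein, was at 57.2, 51.2, 78.0 and 50.1 CPM, and Rab25, a GTPase of apical recycling endosomes, at 28.6, 26.1, 58.3 and 31.9 CPM. Neither was called in a genotype pair, with E14.5 ratios of 1.56-fold (1.42 to 1.72) and 1.83-fold lower (1.63 to 2.06). St14, which encodes the membrane protease matriptase, was at 131, 119, 176 and 108 CPM. Its inhibitors Spint1 and Spint2 were at 189, 145, 268 and 132 CPM and at 507, 499, 1203 and 640.3 CPM, with E14.5 ratios of 2.03-fold (1.92 to 2.15) and 1.88-fold lower (1.83 to 1.93). On plain CPM Spint1 was at -0.95 on the log2 scale and not called.

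Genes with no read in either mesenchymal library had no signal detected in the mesenchyme as sampled at E12.5. There were 5 of them, and they differed among themselves at E14.5: Marveld3 was 3.07-fold lower, Ehf 2.28-fold lower, Rab25 1.83-fold lower, Cldn8 1.19-fold lower (0.977 to 1.46) and Cldn4 1.19-fold higher. The extremes lay 3.66-fold apart. Mesenchyme was not sampled at E14.5, and the part of other cell types in these 5 genes was not tested. Over the 29 genes whose control mesenchyme level was 1/16 of the epithelial level or lower, the E14.5 median was -1.01 (15 of 29 lower, SD 0.45), and over the 10 other measured genes it was -0.57 (3 of 10 lower, SD 0.61). Across the 39 genes the ratio of mesenchyme to epithelium and the E14.5 genotype ratio had a Pearson r of 0.32 and a Spearman rho of 0.30. This is a description across genes, which are not independent, and all genes share the same 4 libraries.

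**Figure D4:**
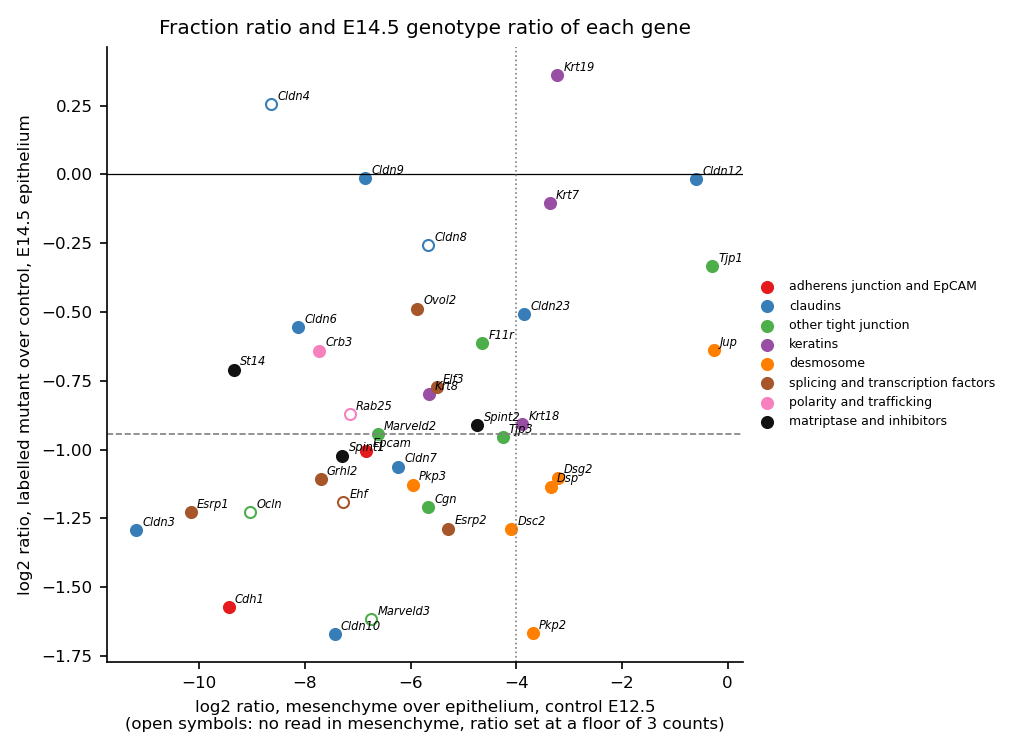
Each point is 1 gene, coloured by class, with its log2 ratio of mesenchyme over epithelium in E12.5 controls on the x axis and of labelled mutant over control in E14.5 epithelium on the y axis; open symbols had no read in the control mesenchyme and stand at a floor of 3 counts, the dashed line is the median of -0.94 and the dotted line 1/16. Genes of low mesenchymal level, to the left, span most of the range of the y axis, from Cldn10 to Cldn4.

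Bases before the transcription start were searched for 2 motifs after the ratios had been seen, as a description of the genes. RefSeq (GRCm38.p6) gave windows of 250 bases before the start for 25 of the 40 genes. The E-box CAGGTG, searched on both strands and known as a binding motif of Snail and Zeb repressors, stood in the windows of 14 of the 25 genes, against 19.4% of 27025 genes. Per window these were 16 of 33 and 17.2% of 32851. AACCNGTT, a Grainyhead-like motif that overlaps no E-box in the windows printed, stood in 2 of 25 (Cgn and Rab25) against 2% of all genes. The windows of 4 genes, chosen as examples with and without the motifs, are printed 5′ to 3′ on the strand of the gene, with E-boxes and Grainyhead-like motifs in capitals. Epcam (chr17:87635729-87635978, plus strand) has 2 E-boxes, Cldn3 (chr5:134985964-134986213, plus strand) has neither motif, Cldn4 (chr5:134946935-134947184, minus strand) has 1 E-box from base -14 to base -9, and Rab25 (chr3:88548301-88548529, minus strand, exonic bases left off) has 2 E-boxes and the Grainyhead-like motif.
Epcam: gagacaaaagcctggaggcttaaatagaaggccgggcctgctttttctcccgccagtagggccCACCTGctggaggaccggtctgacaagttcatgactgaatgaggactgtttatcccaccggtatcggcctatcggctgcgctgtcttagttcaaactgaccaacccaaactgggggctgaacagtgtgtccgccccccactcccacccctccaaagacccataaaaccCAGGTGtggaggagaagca
Cldn3: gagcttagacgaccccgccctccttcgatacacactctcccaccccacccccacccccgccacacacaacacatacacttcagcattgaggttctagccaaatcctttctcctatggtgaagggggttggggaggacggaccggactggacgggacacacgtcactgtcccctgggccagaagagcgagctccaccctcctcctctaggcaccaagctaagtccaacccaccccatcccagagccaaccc
Cldn4: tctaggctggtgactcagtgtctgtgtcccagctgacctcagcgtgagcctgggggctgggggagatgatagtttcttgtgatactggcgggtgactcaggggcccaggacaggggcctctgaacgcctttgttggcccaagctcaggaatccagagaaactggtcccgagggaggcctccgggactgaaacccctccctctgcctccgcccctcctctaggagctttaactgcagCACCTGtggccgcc
Rab25: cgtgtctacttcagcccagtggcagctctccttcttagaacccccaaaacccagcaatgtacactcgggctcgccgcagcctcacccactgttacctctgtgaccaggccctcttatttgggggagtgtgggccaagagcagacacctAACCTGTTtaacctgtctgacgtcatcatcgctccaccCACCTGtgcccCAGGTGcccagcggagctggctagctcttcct
Such a match is a run of letters, and binding was not measured here. No relation between the motifs and the ratios was tested.

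Other genes of junctions and polarity, from lists of known function that hold no gene described above, were called in both directions at E14.5 in 4 lists of 5, where 9.64% of all measured genes were higher and 6.4% lower. Of 13 measured further tight junction genes 4 were called higher and 3 lower, of 10 cadherin, catenin and nectin genes 1 higher and 1 lower, of 14 polarity complex genes 1 higher and 1 lower, of 9 further keratin and desmosome genes 3 higher and 1 lower, and of 15 epithelial factors and proteases 0 higher and 5 lower. The counts for the cadherin and polarity lists are close to those shares of all genes. The largest lower folds were those of the keratin Krt23 (17.3 CPM in the control and 1.36 CPM, 12.7-fold, 7.97 to 21.4), the nectin gene Pvrl4 (12.1 and 1.29 CPM, 9.38-fold, 5.77 to 16.2) and the apical myosin gene Myo5b (38.2 and 11.3 CPM, 3.38-fold, 2.83 to 4.07). Krt14, a keratin of basal cells, was 9.81-fold higher (0.959 and 9.41 CPM, 5.64 to 18.4), Cldn15 7.25-fold (4.66 to 11.8) and Snai2 5.07-fold (29.7 and 150.2 CPM, 4.57 to 5.63). Snai2 belongs to the transcription factors of epithelial to mesenchymal transition, of which 6 of 7 were higher and 0 lower (median 1.37). That list shares genes, Twist1 and Prrx1 among them, with the mesenchymal markers given above, so those counts are not separate. In the E12.5 controls 7 of 7 of these factors were higher in mesenchyme than in epithelium (median 1.74). At E12.5, 0 of these further genes were lower. Krt14 was 3.86-fold higher (2.58 to 5.89), Cldn1, a claudin of stratified epithelia, 2.85-fold (2.27 to 3.61) and Klf5 2.61-fold (2.25 to 3.04). Of the transition factors 2 of 7 were higher. Twist1 (5.65 CPM in the control and 12.9 CPM), with the largest E12.5 ratio of these factors, is counted among the mesenchymal markers too.

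The last comparisons followed the epithelium from E12.5 to E14.5. In controls 11 of 39 genes were called higher at E14.5 and 1 lower, where 6.53% of all 12136 measured genes were higher and 11.2% lower, and the median was 0.45. Cldn10 had the largest ratio, 5.06-fold higher (4.78 to 5.37), followed by Pkp2 (3.05-fold, 2.68 to 3.49), Krt18 (2.76-fold) and Cldn3 (2.73-fold). The others called higher were Krt8 (2.42-fold), Krt19 (2.41-fold), Cldn23 (2.41-fold), Spint2 (2.37-fold), Cldn7 (2.29-fold), Ehf (2.28-fold) and Rab25 (2.04-fold, or 0.87 on the log2 scale on plain CPM and then not called). Krt7 was 2.0-fold higher and fell just short of the threshold. Cldn9 was 2.87-fold lower (2.46 to 3.37). Keratins had the highest class median, 1.27, and desmosome genes the lowest, 0.10. Plain CPM moved the median of all genes by -0.16 in this comparison, and on it Dsp, Jup, Esrp2 and Grhl2, with ratios of 0.07 to 0.15, turned below 0. The table of the E12.5 control epithelium carries a file date unlike that of the other 5. A separate sequencing run, if there was one, cannot be told apart from that group here or in the other comparisons that use it. Acinar markers were higher at E14.5 in the same comparison (11 of 12, median 3.74), and their part was not tested.

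In the libraries labelled mutant 3 of 39 genes were called higher at E14.5 and 1 lower (background 6.27% and 5.89%), with a median of 0.01. In the same comparison mesenchymal markers summed to 6906 CPM at E12.5 and 13248 CPM at E14.5 (8 of 26 higher, 0 lower, median 0.60), whereas in controls the sums were 5872 and 6554 CPM (5 of 24 higher, 6 lower). Endocrine markers were higher for 11 of 14 genes, acinar markers for 7 of 11 and leukocyte markers for 5 of 11, with 0 lower in each, and the part of these cells was not tested. Cldn8 was 4.23-fold higher (3.04 to 5.98), from the 3.02 CPM of its low E12.5 library, Krt19 was 3.12-fold higher (2.88 to 3.37) and Cldn10 2.48-fold (2.26 to 2.71), and Cldn9 was 2.40-fold lower (2.02 to 2.85). Cldn10 and Krt19 were thus called higher with stage, and Cldn9 lower, under both genotype labels. The stage ratio was larger in controls for 32 of 39 genes. Among the genes called higher in controls the difference was largest for Cldn3 (1.45 in controls and 0.28 on the log2 scale) and Pkp2 (1.61 and 0.53), whereas Krt7 had nearly the same ratio (1.0 and 0.98). The stage and genotype comparisons are made from the same 4 libraries, so the 2 stage ratios of a gene differ by exactly as much as its 2 genotype ratios and add no separate evidence.

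**Figure D5:**
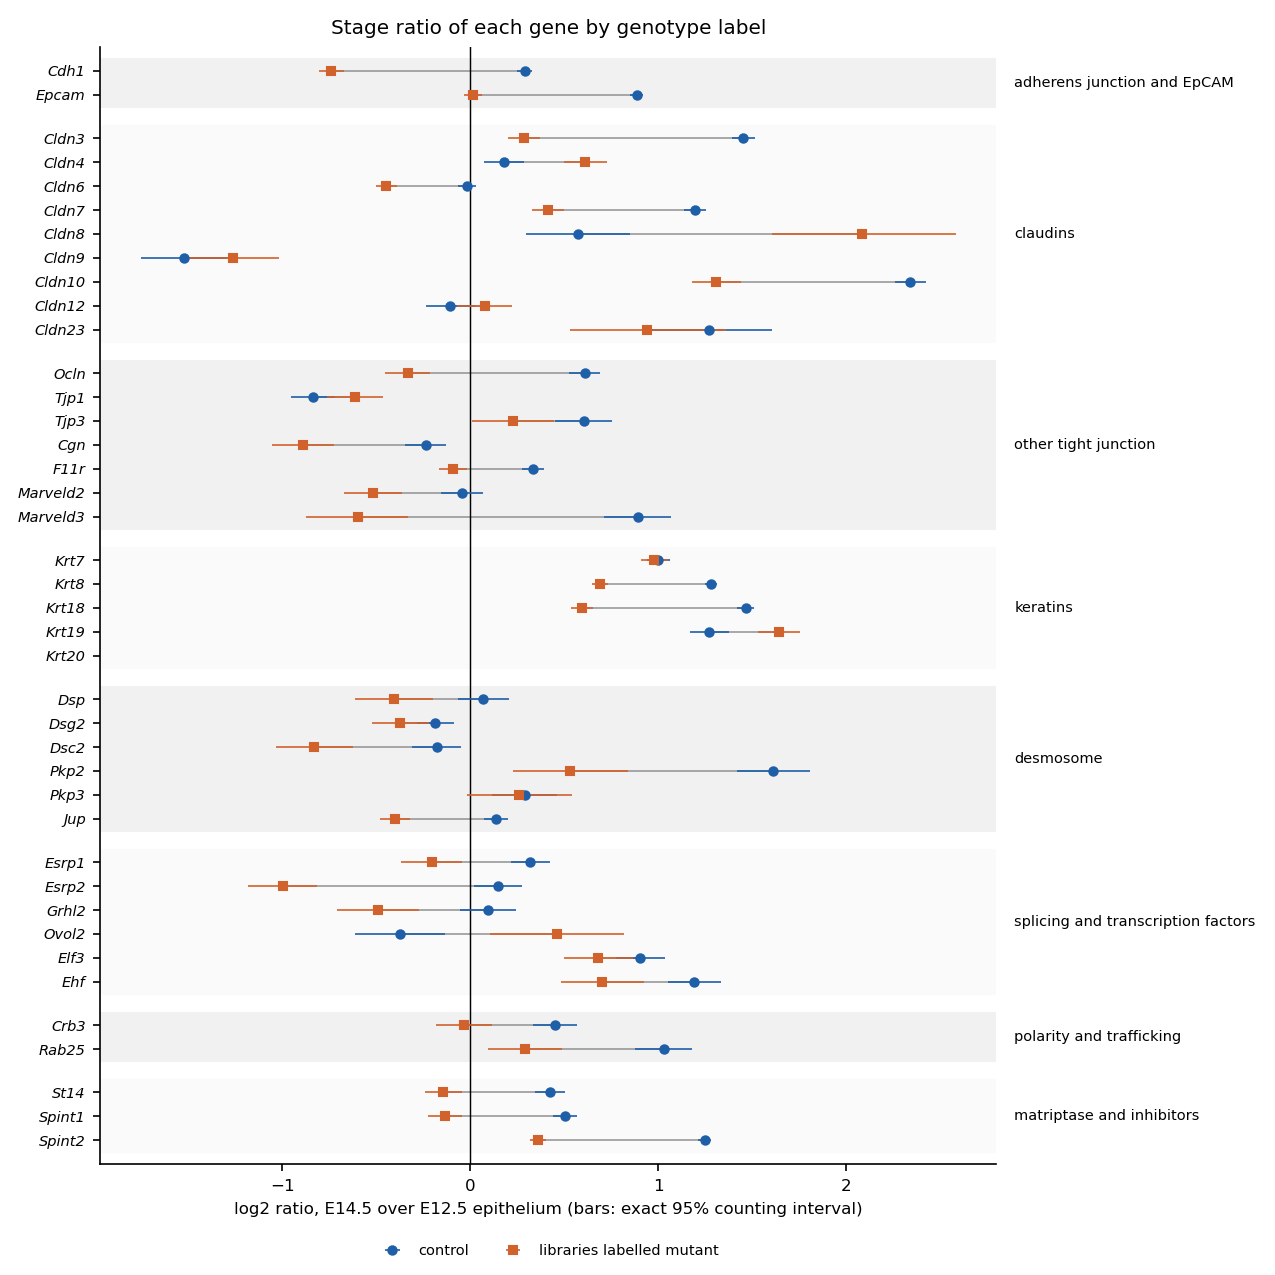
Each row is 1 gene, with its log2 ratio of E14.5 over E12.5 epithelium in controls (blue circles) and in libraries labelled mutant (orange squares); bars are exact 95% counting intervals and grey lines join the 2 values. Most blue circles lie to the right of their orange squares (32 of 39), with Cldn4, Cldn8, Krt19 and Ovol2 among the genes in the other order.

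Counts of 12 genes may include reads of an overlapping gene on the other strand, since the use of strand in counting is not given: Cldn3, Tjp3, Krt7, Krt8, Dsp, Dsg2, Esrp1, Esrp2, Grhl2, Ovol2, Elf3 and Crb3. The overlap is of 14 to 499 exonic bases.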

How the data were processed

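For each library the authors deposited raw counts by gene symbol, in whole numbers, per the files. Table names call the counts deduplicated, which lowers very abundant genes such as Krt8. The submitters' processing notes name mm10, Cufflinks 2.2.1 and Cuffdiff 2.2.1. Which aligner, counter and annotation were used, and whether strand was, is not given in the sources used here. Summary lines stayed out of the totals: 4.69% to 8.84% of reads fell in no gene, 1.53% to 1.72% were ambiguous and 13.7% to 20.1% had several places.

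From the counts, CPM were computed with TMM factors (0.941 to 1.047) from edgeR 4.0.16 in R 4.3.3. Intervals came from scipy 1.17.1 in Python 3.11.15, tables from pandas 2.3.3 and numpy 2.4.6, and figures from matplotlib 3.10.9. The log2 ratio of 2 libraries has an exact conditional binomial (Clopper-Pearson) interval of 95%. Without molecular identifiers reads may stem from the same molecule, and the intervals and floors hold counting error alone. Where a library had no read, a floor of 3 counts was used. No test was made, since each group is 1 library. Counts were simulated for the E14.5 epithelial pair (11824 genes) with counting error alone. On them the rule called 100% of genes altered by a log2 change of 1.5, 100% of genes altered by 3 and 0% of 11624 unaltered genes. No variation between libraries was simulated, so these shares do not give the rate of false calls in the real libraries.

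The members and lists were chosen with earlier results of these data known. All 40 genes are given. Of other junction genes, up to 3 in each direction are named per epithelial genotype pair, by the interval bound nearer to 1. Within-library pairs of genes and the promoter windows were chosen after values were seen. The alternatives tried were, for scaling, DESeq2 1.42.0 size factors, plain CPM, thinning, and TMM without the 50 most abundant genes; for low values, no filter or one at 1 or 20 CPM; for calls, a 1.5-fold or 4-fold threshold or no interval condition; and ratios taken against the members' median. Positions and exon lengths came from GENCODE M21, on the same assembly as mm10, and matched all 40 genes. 1 item of the mutant genotype is not reported here.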

Additional observations from a re-analysis of the deposited data

Results flagged for a closer look

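For 11 comparisons the counting intervals of a gene lay on opposite sides of 0 under 2 matching contrasts. With 1 library per group none of these differences was tested. Libraries differed by more than counting error, and the share of all genes that this rule would flag was not computed. Cldn4 had a genotype ratio of -0.18 at E12.5 and 0.25 at E14.5 in the epithelium, a difference of -0.43 on the log2 scale. The other 10 concern the ratio of E14.5 to E12.5, above 0 in controls and below 0 in the libraries labelled mutant for 9 genes. The difference, control minus labelled mutant, was 1.49 for Marveld3, 1.15 for Esrp2, 1.03 for Cdh1, 0.94 for Ocln and 0.64 for Spint1. It was 0.57 for St14, 0.54 for Jup, 0.52 for Esrp1 and 0.43 for F11r. On plain CPM the control ratios of Jup (-0.02) and Esrp2 (-0.01) turned below 0, so these 2 no longer lay on opposite sides. Ovol2 went the other way, from 19.7 to 15.2 CPM in controls and from 7.88 to 10.8 CPM in the libraries labelled mutant, a difference of -0.83.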

How the results depend on the processing

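No direction of a gene's call was reversed under any alternative run, and no paired analysis was possible because the labels carry no replicate numbers and each group has 1 library. In the mesenchyme genotype pair, where 10 of the genes reached 5 CPM, a filter at 1 CPM gave 1 gene higher and 7 lower. No filter gave 2 and 9, a filter at 20 CPM 0 lower, a 1.5-fold threshold 1 higher and a 4-fold threshold 0 lower. In the E12.5 epithelial pair a filter at 20 CPM left 1 lower, and thresholds of 1.5-fold and 4-fold gave 10 and 0 lower. In the E14.5 pair these thresholds gave 29 and 0 lower, and ratios relative to the members' median gave 2 higher and 0 lower. With stage in controls, plain CPM lowered the median to 0.29, the 1.5-fold threshold gave 17 higher and 2 lower, and the 4-fold threshold 1 and 0. With stage in the libraries labelled mutant, plain CPM gave 2 lower, the 1.5-fold threshold 10 higher and 7 lower, and the 4-fold threshold 1 and 0. Thresholds change these counts by their construction. Of 461 single-gene values under other scalings, 450 kept their call or moved by less than their interval, 7 moved by more and 4 lost their call, all 4 on plain CPM (Epcam, Cldn7, Spint1 and Rab25). Leaving out replicates was not possible.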
